A study of Xenopus tropicalis with 26 samples.

Results

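H3K4me1 ChIP-seq peaks of vegetal tissue were compared between 2 treatments of Xenopus tropicalis embryos. In morpholino endoderm, Vegt, Otx1 and Foxh1 were targeted together by morpholinos, and in alpha-amanitin endoderm the embryos had received 5 pg of that toxin. Both samples were taken at Nieuwkoop-Faber stage 10.25, 7 hours after fertilisation, and each was dissected from 100 fixed embryos. These are 2 of the 26 samples of the study, with 1 library per condition. The members were all peaks of the authors' 2 deposited lists, 1192 peaks in morpholino endoderm and 2372 in alpha-amanitin endoderm, out of 56173 peaks in 9 lists. Peaks were called shared, or found in another list, when they overlapped by at least 1 bp. The other 7 lists were used for comparison. They are untreated endoderm, mesoderm (marginal zone) and ectoderm (animal cap) and alpha-amanitin mesoderm and ectoderm of the same experiment, called set 2 here, and untreated mesoderm and ectoderm of an experiment with pooled replicates, called set 1.

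H3K4me1 is a single methyl group on lysine 4 of histone H3. It is laid down by MLL-type methyltransferases at enhancers and at the flanks of promoters, often before the linked gene is transcribed. Vegt is a T-box factor whose mRNA is stored in the vegetal part of the Xenopus egg, and it is known for starting the endoderm programme. Foxh1 is a forkhead factor that binds DNA ahead of Nodal signals and pairs with Smad proteins, and Otx1 is a homeodomain factor also supplied by the mother. Morpholinos block translation or splicing of their target RNA. This sample is read here as standing for loss of maternal factors, although the labels give no measure of that loss. Alpha-amanitin blocks RNA polymerase II, so that embryos keep their maternal proteins while the making of zygotic mRNA is blocked. The labels give no measure of how complete that block was. The comparison therefore sets the marks found after morpholinos against these 3 factors beside those found after alpha-amanitin.

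The design limits what the lists can show. The 3 morpholinos were given together, so no peak can be tied to 1 factor, and the labels give neither a morpholino dose nor a measure of knockdown. The labels name neither a mock injection nor a control morpholino, and the untreated libraries are labelled wild type. The morpholino list stood apart before any comparison. It was the shortest of the 9, covering 410.64 kb against 868.91 kb for alpha-amanitin and 1426.08 kb for untreated endoderm, and 14.7% of its peaks lay on scaffolds outside the 10 chromosomes, against 5.82% and 3.98%. Among the untreated set 2 lists, mesoderm held 8812 peaks (4330.47 kb), ectoderm 4148 (1745.77 kb) and endoderm 3740. Shares found in these lists may therefore differ with list length as well as with layer. Read numbers are unknown, so the length of a list may differ with depth as well as with the mark. In pooled tissue, fewer marked cells and a weaker mark in each cell cannot be told apart either. Without replicates no p-value is given. Intervals are exact 95% Clopper-Pearson intervals over peaks and cover counting error only. The files and labels do not name the genome build behind the coordinates. Regions are therefore given by position without gene names or sequences, and the endoderm label could not be checked against marker genes.

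Most peaks of either treatment had no counterpart in the other. Of the 1192 morpholino peaks, 447 were found in the alpha-amanitin list (37.5%, 34.7 to 40.3). Of the 2372 alpha-amanitin peaks, 442 were found in the morpholino list (18.6%, 17.1 to 20.3). Merging overlapping peaks gave 3113 regions, of which 438 were held by both lists (14.1%), 745 by the morpholino list alone and 1930 by the alpha-amanitin list alone. The sequence covered by both lists came to 134.098 kb, which is 32.7% of the morpholino and 15.4% of the alpha-amanitin coverage. With the alpha-amanitin list held to its 1192 strongest peaks by the authors' −log10 q, the shares were 25.8% (23.4 to 28.4) of morpholino and 25.3% (22.8 to 27.8) of alpha-amanitin peaks. With the same number of peaks in both lists, these 2 shares are nearly equal by construction.

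**Figure D1:**
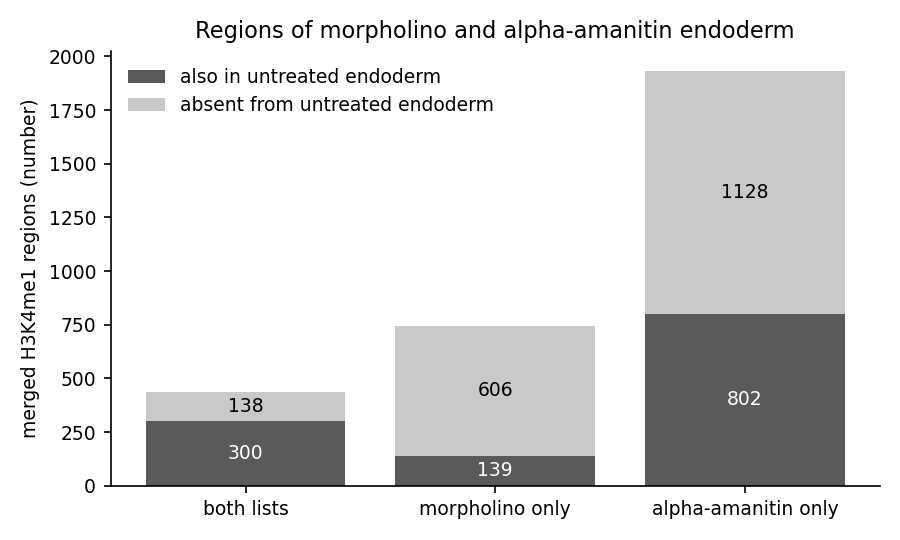
Number of merged H3K4me1 regions held by both treated endoderm lists, by the morpholino list only and by the alpha-amanitin list only (y axis), split by overlap with untreated endoderm. Of the 438 regions of both lists 300 are also in untreated endoderm, against 139 of 745 morpholino-only and 802 of 1930 alpha-amanitin-only regions.

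The strongest shared regions were marked in every list. On chromosome 6, the region from 116112162 to 116114509 ranked first in the morpholino list (authors' −log10 q 111.9, 13.1-fold enrichment) and second in the alpha-amanitin list (104.3, 14.3-fold). It spanned 2348 bp, and close beside it lay the third region of this class (116114611 to 116115150, −log10 q 69.0 and 46.9). On chromosome 1, the region from 93547903 to 93548730 ranked 2 in the morpholino list (−log10 q 103.9, 22.4-fold) and 6 in the alpha-amanitin list (72.1, 20.8-fold). These 3 regions overlapped peaks in all 7 other lists. The chromosome 6 regions had the same −log10 q as each other in every mesoderm and ectoderm list (168.0 in untreated mesoderm). They are therefore not counted as separate examples there. The strongest shared region on a scaffold (scaffold 4722, 2588 to 2969) ranked 3 and 1 and was also in all 7. These strongest shared regions were thus listed in all 3 germ layers.

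Shared peaks overlaid each other closely. Among the 451 overlapping pairs, the summits lay a median of 78 bp apart, and 267 pairs (59.2%) had summits within 100 bp. In 427 pairs the overlap covered at least 50% of the shorter peak, and in 216 pairs all of it. The alpha-amanitin peak was the wider in 273 pairs and the morpholino peak in 176, with median widths of 379 and 343 bp. In both lists shared peaks were wider than the others. Morpholino peaks had a median width of 342 bp when found in alpha-amanitin and 279 bp when not, and alpha-amanitin peaks 374 and 305 bp. Across pairs, ranks within the lists were related with a Spearman rho of 0.34 by −log10 q and 0.53 by fold enrichment, as a description over peaks of 2 libraries.

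Taken over all layers, peaks present in untreated endoderm were shared more often than peaks absent from it. Of the 442 morpholino peaks in the untreated endoderm list, 303 were found in the alpha-amanitin list (68.6%, 64.0 to 72.9). Of the 750 absent from untreated endoderm, 144 were found there (19.2%, 16.4 to 22.2). The difference was 49.4 percentage points (43.9 to 54.5). Taken from the alpha-amanitin side, 298 of 1100 peaks in untreated endoderm were found after morpholinos (27.1%, 24.5 to 29.8) and 144 of 1272 absent from it (11.3%, 9.63 to 13.2), a difference of 15.8 points (12.6 to 19.0). With all lists at equal length, the untreated list also shortened, this difference was 25.0 points. For peaks of untreated endoderm alone, the intervals overlapped those of absent peaks. They were found in 10 of 64 cases among morpholino peaks (15.6%, 7.76 to 26.9). Among alpha-amanitin peaks it was 10 of 87 (11.5%, 5.65 to 20.1). Both splits by untreated endoderm rest on the same single untreated library. Side by side, 441 of its 3740 peaks were found after morpholinos (11.8%, 10.8 to 12.9) and 1101 after alpha-amanitin (29.4%, 28.0 to 30.9). Of its 838 peaks of all 3 layers, 228 were found after morpholinos (27.2%, 24.2 to 30.4) and 622 after alpha-amanitin (74.2%, 71.1 to 77.2). Of its 972 peaks of endoderm and mesoderm without ectoderm, 148 (15.2%) and 390 (40.1%) were found. Its 1903 endoderm-only peaks were rarely found after either treatment, 64 after morpholinos (3.36%, 2.60 to 4.27) and 84 after alpha-amanitin (4.41%, 3.54 to 5.44), with overlapping intervals. That class was picked by absence from untreated mesoderm and ectoderm, and no second untreated endoderm list was available. A low share elsewhere may follow in part from that choice. The alpha-amanitin list was longer than the morpholino list, so the shares set side by side may differ with list length as well. At equal list length, 19.6% of morpholino and 29.8% of alpha-amanitin peaks were found in untreated endoderm.

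Among 138 shared regions that were absent from untreated endoderm, 117 overlapped an untreated mesoderm peak (84.8%, 77.7 to 90.3) and 76 an untreated ectoderm peak (55.1%, 46.4 to 63.5). Over all 1872 regions absent from untreated endoderm these shares were 65.8% and 36.6%. Alpha-amanitin-only regions among them gave 80.3% (77.9 to 82.6) in mesoderm, an interval that overlapped that of the shared regions, and 46.5% (43.5 to 49.4) in ectoderm. The mesoderm list was the longer, and its length was not separated from layer here. Of these 138 shared regions absent from untreated endoderm, the strongest on a chromosome lay on chromosome 5 (38567290 to 38567636). It had a −log10 q of 51.3 after morpholinos and 46.4 after alpha-amanitin, and it was in all 6 lists of mesoderm and ectoderm. The next was also on chromosome 5 (62563453 to 62563991; −log10 q 33.3 and 19.8) and was in 5 of these lists, all but untreated set 2 ectoderm. The third, on chromosome 7 (80870371 to 80870819; 22.4 and 19.2), was in 5, all but alpha-amanitin ectoderm. These marks occurred in both treated endoderm samples and in the other layers, and were not listed in untreated endoderm.

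The layers that held a peak in untreated embryos ordered its sharing. Morpholino peaks present in all 3 untreated set 2 layers were found after alpha-amanitin in 199 of 226 cases (88.1%, 83.1 to 92.0), where the whole list gave 37.5%. For peaks of untreated endoderm and mesoderm without ectoderm it was 93 of 151 (61.6%, 53.3 to 69.4), and for peaks of untreated mesoderm without endoderm 121 of 329 (36.8%, 31.6 to 42.2). The class of mesoderm without endoderm includes peaks also held by untreated ectoderm. Peaks of untreated endoderm alone were found in 10 of 64 cases (15.6%, 7.76 to 26.9), and peaks in no untreated set 2 layer in 21 of 411 (5.11%, 3.19 to 7.70). The intervals of neighbouring classes in this order did not overlap, those of the last 2 by a narrow margin. At equal list length the interval of endoderm alone overlapped those of the classes before and after it. Mesoderm without endoderm then gave 61 of 329 (18.5%, 14.5 to 23.2), endoderm alone 4 of 64 (6.25%, 1.73 to 15.2) and no untreated layer 4 of 411 (0.973%, 0.266 to 2.47).

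From the alpha-amanitin side the range was narrower. Peaks of all 3 untreated layers were found after morpholinos in 194 of 615 cases (31.5%, 27.9 to 35.4), where the whole list gave 18.6%. Peaks of endoderm and mesoderm followed with 94 of 393 (23.9%, 19.8 to 28.5). The remaining classes overlapped in their intervals, with 122 of 1028 peaks of mesoderm without endoderm (11.9%, 9.95 to 14.0), 10 of 87 of endoderm alone (11.5%, 5.65 to 20.1) and 20 of 219 in no untreated layer (9.13%, 5.67 to 13.8). Peak strength was set beside these classes. In the upper 50% of the alpha-amanitin list by −log10 q, 37.2% (32.7 to 42.0) of 3-layer peaks were found, against 17.8% (12.5 to 24.2) in the lower 50%. Peaks of endoderm and mesoderm likewise gave 31.7% (25.7 to 38.2) and 13.6% (8.83 to 19.7). In the classes that follow, the upper and lower intervals overlapped. Peaks of mesoderm without endoderm gave 14.0% (10.8 to 17.7) and 10.4% (8.13 to 13.1), and ectoderm-only peaks 2 of 10 and 0 of 15. The order was the other way for peaks in no untreated layer, with 4.35% (0.906 to 12.2) in the upper and 11.3% (6.74 to 17.5) in the lower 50%. Endoderm-only peaks likewise gave 9.09% (1.92 to 24.3) and 13.0% (5.37 to 24.9). For 3-layer morpholino peaks the corresponding shares were 88.2% (81.6 to 93.1) and 87.8% (79.2 to 93.7), so their sharing was as high among weak peaks.

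**Figure D2:**
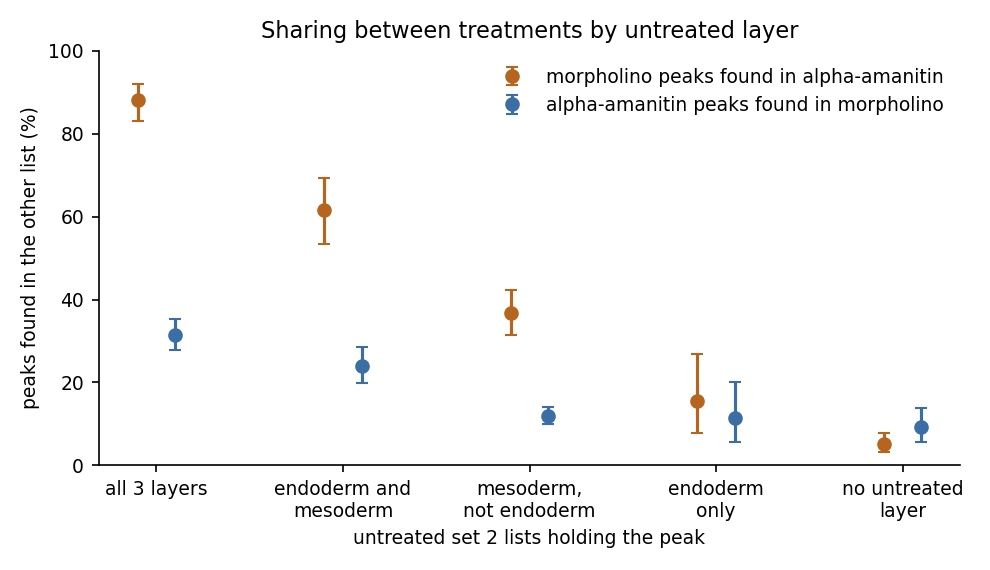
Percentage of peaks of each treated endoderm list found in the other treated list (y axis), by the untreated set 2 layers that hold the peak (x axis). The class of mesoderm without endoderm includes peaks also held by untreated ectoderm. Points are shares and bars exact 95% intervals; morpholino peaks fall from 88.1% for all 3 layers to 5.11% for no untreated layer, alpha-amanitin peaks from 31.5% to 9.13%.

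The 2 lists also differed in their makeup by layer. Peaks in no untreated set 2 layer made up 34.5% (31.8 to 37.3) of the morpholino list and 9.23% (8.10 to 10.5) of the alpha-amanitin list. Peaks of mesoderm without endoderm, with or without ectoderm, made up 27.6% (25.1 to 30.2) and 43.3% (41.3 to 45.4). Peaks of all 3 layers made up 18.96% (16.8 to 21.3) and 25.9% (24.2 to 27.7). Endoderm-only peaks were few in both, 64 (5.37%, 4.16 to 6.80) and 87 (3.67%, 2.95 to 4.50), and ectoderm-only peaks fewer, 10 and 25. In the 1192 strongest alpha-amanitin peaks, the share in no untreated layer was 5.96% (4.68 to 7.45) and the share of all 3 layers 36.5% (33.8 to 39.3), which widened both gaps to the morpholino list. The gap for mesoderm without endoderm narrowed, with 35.1% (32.4 to 37.9) of those alpha-amanitin peaks. Endoderm-only peaks numbered 33 among them (2.77%, 1.91 to 3.87), an interval that lay below that of the morpholino list.

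Regions of a single treatment also differed in where else they were listed. In the full morpholino list, set 1 mesoderm held 65.4% of peaks, set 1 ectoderm 54.4% and alpha-amanitin ectoderm 29.1%. In the full alpha-amanitin list, set 1 mesoderm held 84.1%, set 1 ectoderm 70.7%, alpha-amanitin mesoderm 58.3% and untreated ectoderm 51.6%. Among merged regions, untreated mesoderm held 74.7% of all 3113 regions, but 1626 of the 1930 alpha-amanitin-only regions (84.2%, 82.5 to 85.8) and 293 of the 745 morpholino-only regions (39.3%, 35.8 to 42.9). The difference was 44.9 points (40.9 to 48.8). It was 26.0 points (22.1 to 29.8) with all lists at equal length. With the mesoderm list kept full and the treated lists at equal length, the shares were 88.1% (85.8 to 90.2) and 46.2% (42.8 to 49.5). Untreated endoderm held 39.9% of all regions, and 41.6% (39.3 to 43.8) of alpha-amanitin-only against 18.7% (15.9 to 21.6) of morpholino-only regions. Untreated ectoderm held 42.9% of all regions, and 49.2% (47.0 to 51.5) against 15.0% (12.5 to 17.8). In alpha-amanitin mesoderm, which held 49.0% of all regions, the shares were 54.9% (52.7 to 57.2) and 19.1% (16.3 to 22.1). Set 1, a separate experiment, gave the same order: 83.6% (81.9 to 85.3) and 52.9% (49.2 to 56.5) in mesoderm, with 76.6% for all regions, and 69.1% (67.0 to 71.1) and 40.1% (36.6 to 43.8) in ectoderm, with 63.5% for all. In each of the 7 lists the 438 regions of both treatments had a higher share than the morpholino-only regions, reaching 92.9% (90.1 to 95.1) in untreated mesoderm. Regions of both treatments were also the widest, with a median of 478 bp, against 305 bp for alpha-amanitin-only and 279 bp for morpholino-only regions. A wider region overlaps another list more easily, and width was not held equal here.

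**Figure D3:**
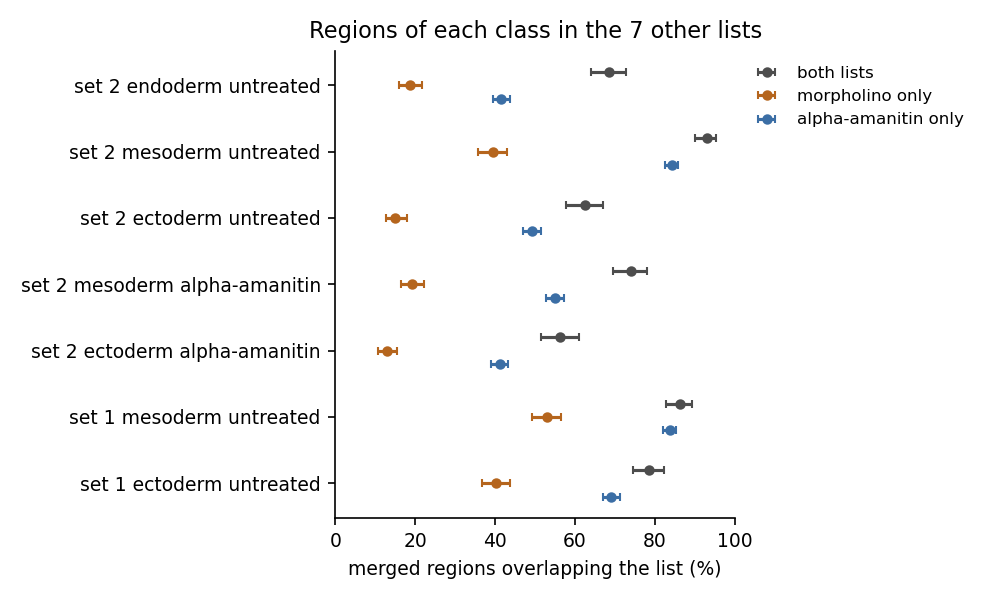
Percentage of merged regions of each class (x axis) that overlap each of the 7 other lists (y axis), with exact 95% intervals. Morpholino-only regions have the lowest share in every list, from 12.9% in alpha-amanitin ectoderm to 52.9% in set 1 mesoderm, and alpha-amanitin-only regions reach 84.2% in untreated mesoderm.

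Counting over all 7 lists gave the same order. The counts come from the same look-ups as the shares above, so they add no separate evidence and have the same limit of unequal widths. Of all 3113 regions, 9.35% were in none of the 7 other lists. Among morpholino-only regions it was 222 of 745 (29.8%, 26.5 to 33.2), among alpha-amanitin-only regions 67 of 1930 (3.47%, 2.70 to 4.39), and among regions of both treatments 2 of 438 (0.457%, 0.0553 to 1.64). The median number of other lists was 2, 4 and 6. All 7 lists held 10 morpholino-only (1.34%), 229 alpha-amanitin-only (11.9%) and 129 shared regions (29.5%), where all regions gave 11.8%. When both treated lists were held to 1192 peaks, 25.5% (22.6 to 28.5) of 884 morpholino-only and 2.13% (1.29 to 3.31) of 891 alpha-amanitin-only regions were in none of the other full lists. A peak seen in a single library has no second measurement here, and whether these peaks are marks of the morpholino tissue or particular to that library was not tested.

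Sharing was highest among the strongest peaks of each list and lowest among the weakest. In 5 bins of equal size by −log10 q, 45.2% (38.8 to 51.7) of the strongest and 26.9% (21.4 to 33.0) of the weakest morpholino peaks were shared with the alpha-amanitin list. For alpha-amanitin peaks it was 34.3% (30.1 to 38.8) in the strongest bin, 20.9% (17.3 to 24.8) in the next and 11.4% (8.68 to 14.6) in the weakest. Strength did not remove the difference between peaks of a single treatment. In the strongest bin, 32 of 131 morpholino peaks without an alpha-amanitin counterpart were in no other list (24.4%, 17.3 to 32.7), against 4 of 312 alpha-amanitin peaks without a morpholino counterpart (1.28%, 0.350 to 3.25). In the weakest bin it was 62 of 174 (35.6%, 28.5 to 43.2) and 33 of 420 (7.86%, 5.47 to 10.9). Untreated mesoderm held 38.9% (30.5 to 47.8) of the former and 93.3% (89.9 to 95.8) of the latter in the strongest bin.

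**Figure D4:**
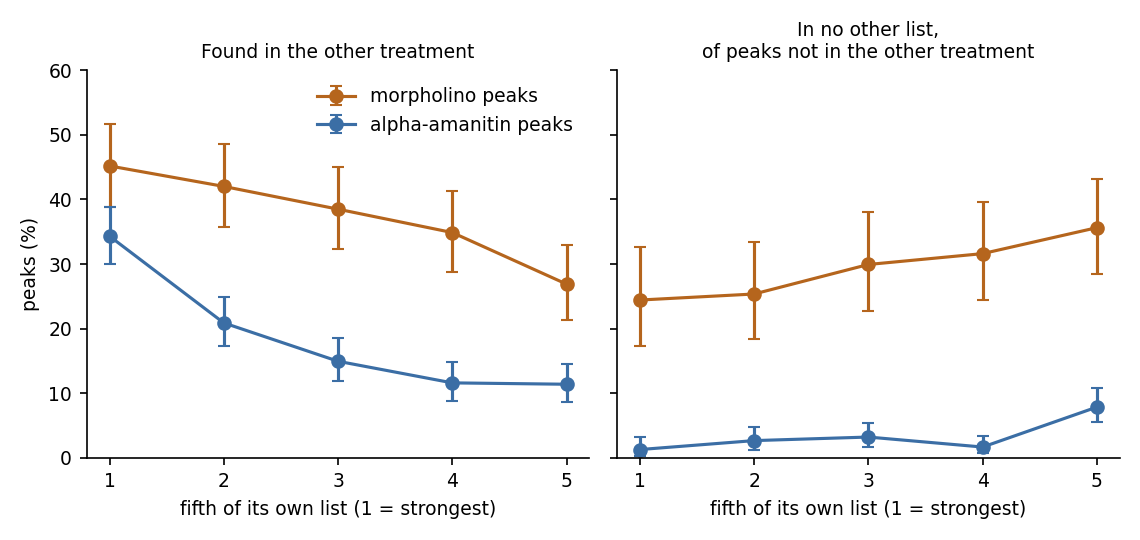
Left, percentage of peaks found in the other treated list; right, percentage found in none of the 7 other lists among peaks not in the other treatment (y axes), by bin of −log10 q within the own list from strongest to weakest (x axes), with exact 95% intervals. Morpholino peaks fall from 45.2% to 26.9% on the left and lie between 24.4% and 35.6% on the right, where alpha-amanitin peaks stay at or under 7.86%.

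At equal list length the morpholino peaks lay nearest to alpha-amanitin endoderm, by a small margin. With 1192 peaks in every list, 25.8% of morpholino peaks were found in alpha-amanitin endoderm, 23.4% (21.0 to 25.9) in untreated mesoderm, 22.1% (19.8 to 24.6) in set 1 mesoderm and 21.4% (19.1 to 23.8) in alpha-amanitin mesoderm, and the intervals of these 4 overlapped. Untreated endoderm followed with 19.6% (17.4 to 22.0) and the 3 ectoderm lists with 14.3% to 16.9%. The difference between alpha-amanitin and untreated endoderm was 6.21 points. At full length it was 0.419 points, with 37.5% and 37.1% of morpholino peaks found, although the untreated list was the longer. The full lists of untreated mesoderm (59.2%), set 1 mesoderm (65.4%), set 1 ectoderm (54.4%) and alpha-amanitin mesoderm (39.5%) all held more morpholino peaks than alpha-amanitin endoderm did, so this order depends on the lengths of the lists. The relation was not mutual. Alpha-amanitin endoderm peaks were found most in untreated mesoderm (42.3%, 39.5 to 45.1), set 1 mesoderm (39.8%, 37.1 to 42.7) and alpha-amanitin mesoderm (37.2%, 34.4 to 40.0), and in morpholino endoderm in 25.3% of cases, with set 1 ectoderm alone below it at 24.2% (21.8 to 26.7). Between them lay untreated ectoderm (30.4%, 27.8 to 33.1), untreated endoderm (29.8%, 27.2 to 32.5) and alpha-amanitin ectoderm (28.2%, 25.6 to 30.8), whose intervals overlapped.

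**Figure D5:**
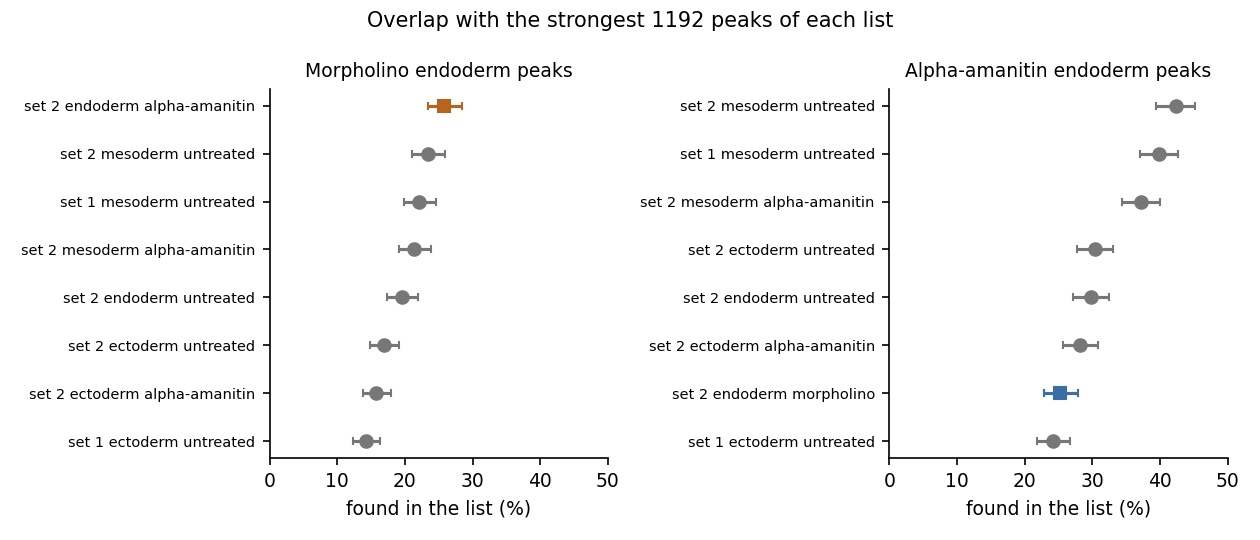
Percentage of the 1192 morpholino peaks (left) and the 1192 strongest alpha-amanitin peaks (right) found in the 1192 strongest peaks of each other list (x axes), lists in order of the share, with exact 95% intervals. Squares mark the other treated endoderm: highest on the left (25.8%) and second lowest on the right (25.3%).

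The strongest regions of a single treatment are given by position. Among morpholino-only regions absent from untreated endoderm, the highest −log10 q was 66.7 (20.5-fold enrichment, rank 13 of the list) on chromosome 9, from 26455262 to 26455572, and it overlapped a peak of set 1 mesoderm and of no other list. The next lay on chromosome 7 (68376272 to 68376535, −log10 q 34.0), with a counterpart in set 1 ectoderm alone. The third lay on chromosome 2 (101565832 to 101566170, −log10 q 31.8), with a counterpart in set 1 mesoderm alone. Each of these 3 thus overlapped no peak of the 6 other set 2 lists. A region of both treated lists (101565134 to 101565629) lay within 500 bp of the third.

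The 3 strongest morpholino-only regions that were in untreated endoderm all had a counterpart in set 1 mesoderm. The strongest was on chromosome 4 (51395023 to 51395383, −log10 q 24.0), in untreated mesoderm of both sets. The second, on chromosome 9 (33609459 to 33609712, −log10 q 22.9), had a −log10 q of 27.9 in untreated endoderm and a further counterpart in set 1 mesoderm. The third, on chromosome 7 (91375493 to 91375936, −log10 q 20.96), was again in untreated mesoderm of both sets. None of the 3 overlapped an ectoderm or alpha-amanitin peak, but a region of both treated lists (91376131 to 91376439) lay within 500 bp of the third.

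Alpha-amanitin-only regions in untreated endoderm were led by regions listed in all layers. The first was on chromosome 1 (13316377 to 13316717, −log10 q 41.8, rank 18) and the second on chromosome 6 (73844600 to 73845159, −log10 q 40.5). Both were in all 7 other lists, so the morpholino list was the single list without a peak overlapping them. A region of both lists (13315552 to 13316110) lay within 500 bp of the first, so the morpholino list was not empty around it. The third, on chromosome 7 (18628907 to 18630082, −log10 q 39.4), spanned 1176 bp and was in the 5 other set 2 lists and in no set 1 list. Of those absent from untreated endoderm, the strongest lay on chromosome 5 (58642593 to 58642944, −log10 q 29.7) and was in mesoderm of both sets and set 1 ectoderm. The next 2, on chromosome 2 (72560762 to 72561137, −log10 q 29.6) and chromosome 3 (127344118 to 127344495, −log10 q 27.9), were in all 6 lists of mesoderm and ectoderm.

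Sharing on scaffolds differed between the 2 lists. Scaffolds held 8.26% of all merged regions, 16.0% (13.4 to 18.8) of morpholino-only, 12.8% (9.80 to 16.3) of shared and 4.25% (3.39 to 5.25) of alpha-amanitin-only regions. Of 138 alpha-amanitin peaks on scaffolds, 56 were found after morpholinos (40.6%, 32.3 to 49.3), against 17.3% (15.7 to 18.9) of the 2234 on chromosomes. Of 175 morpholino peaks on scaffolds, the alpha-amanitin list held 56 (32.0%, 25.2 to 39.5), against 38.4% (35.4 to 41.5) of 1017. Over the 10 chromosomes, the share of morpholino peaks found ran from 31.9% on chromosome 5 to 47.6% on chromosome 6, and that of alpha-amanitin peaks from 14.9% on chromosome 1 to 21.0% on chromosome 7. The strongest morpholino-only region on a scaffold (scaffold 1041, 517 to 1470, −log10 q 69.5) was in 6 other lists, all but alpha-amanitin mesoderm. The strongest alpha-amanitin-only one (scaffold 232, 177644 to 177939, −log10 q 33.6) was in 6, all but set 1 ectoderm.

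Some peaks without a direct counterpart lay near a peak of the other treatment. On chromosomes, 104 of 626 morpholino peaks outside the alpha-amanitin list had an alpha-amanitin peak within 1 kb (16.6%, 13.8 to 19.8), 173 within 5 kb (27.6%, 24.2 to 31.3) and 241 within 20 kb (38.5%, 34.7 to 42.4). Among 1848 alpha-amanitin peaks outside the morpholino list, 199 had a morpholino peak within 1 kb (10.8%, 9.39 to 12.3) and 553 within 20 kb (29.9%, 27.8 to 32.1). At equal list length the shares within 20 kb were 29.4% (26.1 to 32.8) and 32.0% (28.9 to 35.3), with overlapping intervals. Peaks of the same list also lay near each other. At equal list length, 42.8% (39.7 to 45.9) of morpholino and 46.7% (43.7 to 49.7) of alpha-amanitin peaks on chromosomes had another within 5 kb. Untreated endoderm gave 43.5% (40.5 to 46.4), an interval that overlapped both. Within 1 kb, the morpholino list gave 32.6% (29.8 to 35.6), alpha-amanitin 35.1% (32.3 to 38.0) and untreated endoderm 27.9% (25.3 to 30.6). At that distance the untreated interval lay below that of alpha-amanitin and overlapped that of the morpholino list.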

How the data were processed

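Peak lists were used as deposited by the authors. The submitters' processing notes name Bowtie2 2.2.7. For the peak caller, its settings, the use of input and the genome build, nothing is given in the sources used here. Each 10-column narrowPeak row holds a score, a fold enrichment (ratio) and a −log10 q, all the authors' own values. The last 2 served to describe and order the peaks of a list. The other value deposited per peak is the offset of its summit. Set 2 lists come from 1 library each, set 1 lists from pooled replicates per the peak names, whose numbering has gaps. Samples were grouped by title. The whole-embryo expression table was not used here, since its gene models carry no coordinates.

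Overlaps, merged regions (overlapping peaks joined over both lists) and exact 95% intervals came from Python 3.11.15 (numpy 2.4.6, scipy 1.17.1), and figures from matplotlib 3.10.9. Intervals of differences combine both exact intervals. The overlap and merging steps were tested on simulated data. Peak strength is the rank by −log10 q, ties by fold enrichment. Coordinates are 1-based. Regions named are the 3 strongest on chromosomes in each of 6 classes (both lists, or 1 of them, with or without untreated endoderm) and the strongest on a scaffold per list class. For shared regions the order used the weaker of the 2 ranks, each divided by its list's length. Alternatives took lists of equal length (also ranked by fold), the 10 chromosomes alone, the upper 50% of each list, a gap of up to 500 bp, or an overlap of 50% of the shorter peak. Added after seeing the data were peaks found in a set 1 list, the classes by untreated layers, strength bins and distances to neighbouring peaks. The members and comparisons were chosen with earlier results of these data known.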

Additional observations from a re-analysis of the deposited data

How the results depend on the processing

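Of 45 recomputed values, 30 stayed within the interval of the reported value (for the number of shared regions, within 1.5 times), 15 moved and 0 reversed. A reversal, meaning a change of sign, was possible only for the differences in percentage points. The shares and the number of shared regions could not reverse. An overlap of 50% of the shorter peak and the 10 chromosomes alone moved none. Morpholino peaks were found after alpha-amanitin in 43.7% of cases with peaks within 500 bp, 32.2% in the upper 50% of each list, 25.8% with lists of equal length (25.1% ranked by fold) and 47.1% of the 842 peaks found in a set 1 list. For alpha-amanitin peaks found after morpholinos the values were 23.8%, 16.1%, 25.3% and 24.7% under the first 4 of these settings. The upper 50% of each list shared 190 regions, by construction fewer. With lists of equal length, where the untreated endoderm list was also shortened, alpha-amanitin peaks present in untreated endoderm exceeded those absent by 25.0 points. Alpha-amanitin-only regions exceeded morpholino-only regions in untreated mesoderm by 39.0 points in the upper 50%, 26.0 with lists of equal length, where the mesoderm list was also shortened, and 31.7 among peaks found in set 1. The excess of alpha-amanitin over untreated endoderm among morpholino peaks was 0.419 points at full length. Where no reason is given, the cause was not tested. No paired analysis was possible because each endoderm condition has 1 library. Read depth is unknown and limits every comparison of list lengths.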

Other observations

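The scaffold with most morpholino peaks was scaffold 94. It held 24 morpholino peaks between 36089 and 534377, against 4 in alpha-amanitin endoderm, 3 in untreated endoderm, 8 in untreated mesoderm and 16 in set 1 mesoderm. Because the scaffold was picked by its morpholino count, an excess over the other lists follows in part from that choice. All 4 alpha-amanitin peaks overlapped a morpholino peak. Of the 24 morpholino peaks 19 were in no other list, against 222 of the 1192 in the whole morpholino list. Next by morpholino count came scaffold 27, with 12 morpholino and 8 alpha-amanitin peaks, and scaffold 236, with 9 and 4. Scaffold 42 held 8 and 2, and scaffold 1360 held 8 and 0. On scaffold 1360 there was 1 peak in untreated endoderm and 8 in untreated mesoderm.

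Peaks seen in both treated endoderm samples and in none of the 7 other lists were rare. Of the 225 morpholino peaks outside untreated endoderm and the 6 mesoderm and ectoderm lists, the alpha-amanitin list held 3 (1.33%, 0.276 to 3.85). Of the 525 in at least 1 of those 6 lists it held 141 (26.9%, 23.1 to 30.9). Of the corresponding 69 alpha-amanitin peaks, 2 were found after morpholinos (2.90%, 0.353 to 10.1), against 142 of 1203 (11.8%, 10.0 to 13.8).

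The sharing of morpholino peaks also differed by presence in untreated mesoderm. Of the 706 morpholino peaks in untreated mesoderm, 413 were found in alpha-amanitin endoderm (58.5%, 54.8 to 62.2), and of the 486 absent from it 34 were found (7.00%, 4.89 to 9.64). For alpha-amanitin peaks the shares found after morpholinos were 20.1% (18.4 to 21.9) of 2036 and 9.52% (6.61 to 13.2) of 336.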
